A study of Mus musculus with 2 samples.

Results

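Secreted and transmembrane mucins were examined in CMT93 cells, a mouse epithelial tumour line, after exposure to bacterial lipopolysaccharide. The set held 10 genes, namely the transmembrane mucin genes Muc1, Muc3, Muc4, Muc13, Muc16 and Muc20 and the gel-forming mucin genes Muc2, Muc5ac, Muc5b and Muc6, out of 34767 gene names on the array. Members were every non-control probe that carried one of these symbols. Under that rule 9 of the 10 genes had a probe, Muc16 had none, and 11 probes were found.

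Total RNA was measured on 2 one-colour Agilent arrays, 1 of CMT93 cells exposed for 24 h to lipopolysaccharide (LPS), a glycolipid of the Gram-negative bacterial outer membrane, at 3 µg/mL and 1 of control CMT93 cells. CMT93 is an established line from a rectal carcinoma of a 19-month-old C57BL/ICRF mouse, and both groups were grown in DMEM. The line is one tumour, so it stands for neither the mixed cell types of the mucosa nor for other tumours. With 1 array in each group there was no replicate check and no test between LPS and control. The precision of each value below is limited by this number of arrays.

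Mucins are large proteins whose serine- and threonine-rich repeats carry dense O-linked glycans. Gel-forming mucins are stored in secretory granules, released and linked through disulfide bonds into the mucus layer, and Muc2 is the main one of the colon, made by goblet cells. Transmembrane mucins stay on the apical surface as part of the glycocalyx, can shed their outer portion, and signal through short cytoplasmic tails.

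The probes are 60 bases long and read a short window of very long transcripts, so the sequence says which window a value comes from. The next 3 are shown because they carry the largest mucin difference, the mucin of colonic goblet cells and the fainter reading of a gene with a pair of probes. The Muc1 probe lies on chromosome 3 at chr3:89034965-89035024 (mm9, plus strand), at base 1254 of its transcript. The Muc2 probe lies at chr7:148940000-148940059 (mm9, plus strand), at base 6898 of its transcript. The fainter Muc4 probe lies at chr16:32774896-32774955 (mm9, plus strand), at base 9726 of its transcript. Whether the windows fall in coding exons or UTRs was not analysed here.
Muc1 probe: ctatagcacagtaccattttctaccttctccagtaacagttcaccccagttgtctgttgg
Muc2 probe: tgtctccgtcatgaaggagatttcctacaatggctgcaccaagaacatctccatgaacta
Muc4 probe at base 9726: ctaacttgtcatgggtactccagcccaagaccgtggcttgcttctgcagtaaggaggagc

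Below, a signal is the scanner software's processed fluorescence, given ± the software's own error estimate for the spot. It is background-subtracted and detrended, but for Muc2 on the LPS array and for Muc3 and Muc6 on both arrays, where the subtracted signal was not positive and significant, the software's value is positive and about equal to its error. Such a value is no measured level, and the subtracted signal is given beside it. A difference is that of the log2 signals after scaling each array to its 75th percentile, LPS minus control. The ± after a difference is the median SD between repeated spots for the 20 replicated probes of nearest brightness. It is an error of the slide that leaves out any spread between cultures and does not use the software's error estimates. At the dim end, Muc13, Muc5ac, Muc5b and the fainter Muc4 probe share 1 value, 0.20. Among the 60 dimmest replicated probes the largest SD was 0.37. Each mucin probe was printed once. A probe counts as measured where it was well above background on both arrays, and a gene takes its brightest measured probe.

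Of the 10 genes, 6 were measured on both arrays, and 1 of these, Muc1, reached a 2-fold higher level with LPS, while 0 were 2-fold or more lower. Over all 20396 measured genes, 1.46% were at least 2-fold higher and 0.569% at least 2-fold lower. In bulk RNA such as this, fewer cells of a type and less RNA per cell cannot be told apart. Another 3 members had a probe but no signal well above background on either array. That was also the state of 36.6% of all gene names with usable spots. Among the 5 transmembrane mucins with a probe 4 were measured, against 2 of 4 gel-forming mucins. For comparison, 20396 of all 34767 gene names were measured.

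**Figure D1:**
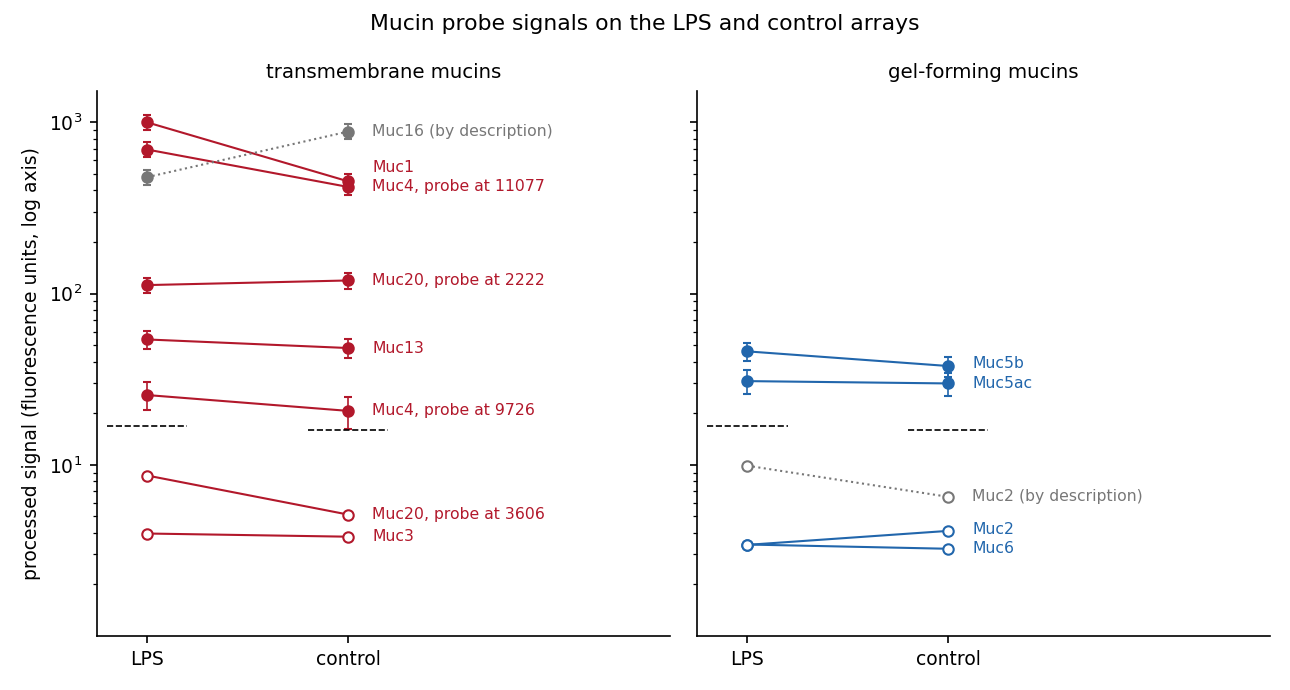
Processed signal of each mucin probe on the LPS array (left) and the control array (right), on a log axis in fluorescence units, with transmembrane mucins in the first panel and gel-forming mucins in the other. Filled points were well above background and carry the software's error, open points were not (those of Muc3, Muc6 and, with LPS, Muc2 are values the software set near its error), grey marks probes named a mucin only in their description, and dashed lines give the lowest well-above-background signal of each array (16.9 LPS, 15.9 control). Muc1 and the brighter Muc4 probe are higher on the LPS array.

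Muc1 encodes a heavily glycosylated surface mucin of most simple epithelia that is cleaved into a pair of associated subunits. Its signal was 999.7 ± 100.0 on the LPS array and 452.3 ± 45.4 on the control array. The difference was 1.19 ± 0.06, or 2.28-fold higher with LPS, the largest among the measured members. Of 1982 genes within 0.5 log2 units of the brightness of Muc1, the 5th and 95th percentiles of the difference were -0.34 and 0.41, so Muc1 stood outside the bulk of equally bright genes.

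Muc4 encodes a long surface mucin that binds the receptor kinase ErbB2 in rat and human cells. Its brighter probe, at chr16:32782278-32782337 (mm9, plus strand), read 693.6 ± 69.5 on the LPS array and 419.5 ± 42.1 on the control array. The difference was 0.77 ± 0.06, or 1.71-fold higher with LPS, below the 2-fold mark. Genes of like brightness (n = 1973) had 5th and 95th percentiles of -0.36 and 0.43. The fainter probe, whose sequence is given above, read 25.5 ± 4.78 on the LPS array and 20.6 ± 4.37 on the control array, close to the lowest signals counted as above background. It differed by 0.35 ± 0.20, the same direction as the brighter probe but a smaller size. The fainter probe is dimmer on average than every replicated probe, so this ± comes from brighter ones. Its readings overlap within the software's errors, so the difference was not resolved. The starts of the 2 windows lie 1351 bases apart on the same transcript, and Muc4 was 0.56 when the median of both was taken.

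Muc13 encodes a transmembrane mucin abundant in the large intestine, and its probe lies at chr16:33819909-33819968 (mm9, plus strand). It read 53.9 ± 6.62 on the LPS array and 48.1 ± 6.04 on the control array. The difference of 0.21 ± 0.20 was about as large as the spot SD at that brightness. Muc20 encodes a small transmembrane mucin that binds the receptor kinase Met in human cells. Its probe at chr16:32786143-32786202 (mm9, minus strand) read 112.1 ± 11.7 on the LPS array and 119.3 ± 12.4 on the control array, a difference of -0.04 ± 0.11, smaller than the spot SD. The Muc13 difference therefore barely passed its spot SD, and for Muc20 no difference was visible beyond the slide error.

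A further Muc20 probe, at chr16:32777512-32777571 (mm9, minus strand), carries the accession of another Muc20 transcript and lies between the windows of the Muc4 probes on the opposite strand. It read 8.65 ± 3.50 on the LPS array and 5.12 ± 3.24 on the control array and was not well above background on either. Muc3, an intestinal surface mucin, had processed values of 3.97 ± 3.98 on the LPS array and 3.80 ± 3.81 on the control array at chr5:137610855-137610914 (mm9, minus strand), again not well above background. Its background-subtracted signals were -0.92 on the LPS array and -1.56 on the control array. No fold is given for these probes.

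Muc16, the large surface mucin known in humans as the CA125 antigen, had no probe under its symbol. A probe that the array names by an Ensembl transcript, and describes as mucin 16, lies at chr9:18299899-18299958 (mm9, minus strand) and was found after the values were seen. It read 478.8 ± 48.0 on the LPS array and 883.6 ± 88.4 on the control array. Its difference of -0.84 ± 0.06, or 1.79-fold lower with LPS, ran opposite to Muc1 and Muc4 and lay short of 2-fold. It falls outside the rule and enters no count of members above.

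Gel-forming mucins were faint or below background. Muc5ac, the gel-forming mucin of gastric surface and airway goblet cells, read 30.8 ± 4.83 on the LPS array and 29.9 ± 4.63 on the control array at chr7:149004793-149004852 (mm9, plus strand). Its difference of 0.09 ± 0.20 was within the spot SD. Muc5b, the main gel-forming mucin of airway and salivary glands, read 46.0 ± 5.82 on the LPS array and 37.7 ± 5.07 on the control array at chr7:149058931-149058990 (mm9, plus strand). Its difference was 0.33 ± 0.20, between the 5th and 95th percentiles of its 2069 like-bright genes, which were -0.72 and 0.69.

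Muc2 had processed values of 3.41 ± 3.42 on the LPS array and 4.11 ± 3.25 on the control array, from background-subtracted signals of -5.28 on the LPS array and 4.62 on the control array. It was not well above background on either array, although the software's looser flag, positive and significant signal, was set for it on the control array. A second probe, described as mucin 2 under an Ensembl transcript, was likewise found after the values were seen. It read 9.88 ± 4.13 on the LPS array and 6.50 ± 3.87 on the control array. This probe was also not well above background on either array. The looser flag was set for it on both arrays, as for the fainter Muc20 probe. Muc6, the gel-forming mucin of gastric and pyloric glands, had processed values of 3.42 ± 3.43 on the LPS array and 3.23 ± 3.24 on the control array at chr7:148819902-148819961 (mm9, minus strand). Its background-subtracted signals were -2.79 on the LPS array and 0.88 on the control array. For Muc2 and Muc6 a change was not detectable at these signals, which does not show that the transcripts are absent.

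**Figure D2:**
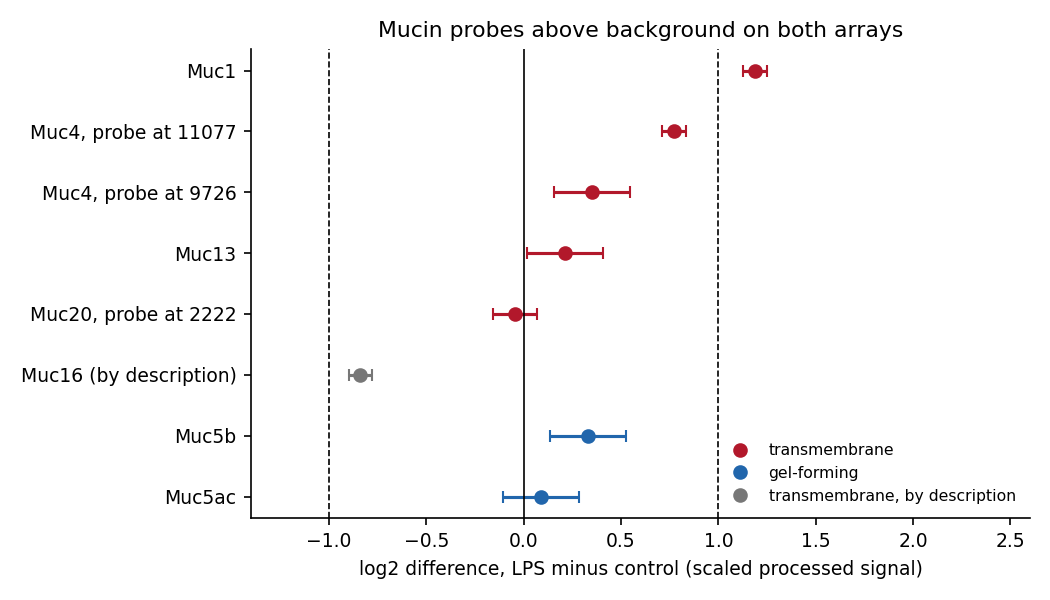
Log2 difference, LPS minus control, of each mucin probe well above background on both arrays, with bars for the spot SD at that brightness and dashed lines at 2-fold. Muc1 at 1.19 lies beyond the upper line, the brighter Muc4 probe at 0.77 lies short of it, and the probe described as mucin 16 at -0.84 lies on the other side of 0.

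Set side by side, the 4 measured transmembrane mucins had a median difference of 0.49 (range -0.04 to 1.19) and the 2 measured gel-forming mucins 0.21 (range 0.09 to 0.33). All 20396 measured genes had a median of -0.02. The medians of the classes differed by 0.28, which is less than the spread among the transmembrane mucins themselves, and the range of the gel-forming mucins lay inside that of the transmembrane mucins. With the probe described as mucin 16 added, the transmembrane median was 0.21 and the medians of the classes differed by 0.0016. Without that probe, they differed by 0.18 when the median over a gene's probes was taken and by 0.10 with no background filter. Of the 6 measured members 5 lay above 0, against 9088 of all 20396 measured genes. Among those 5, Muc5ac lay within its spot SD and Muc13 was about as large as its own. The probe described as mucin 16, which lay below 0, is not in that count.

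**Figure D3:**
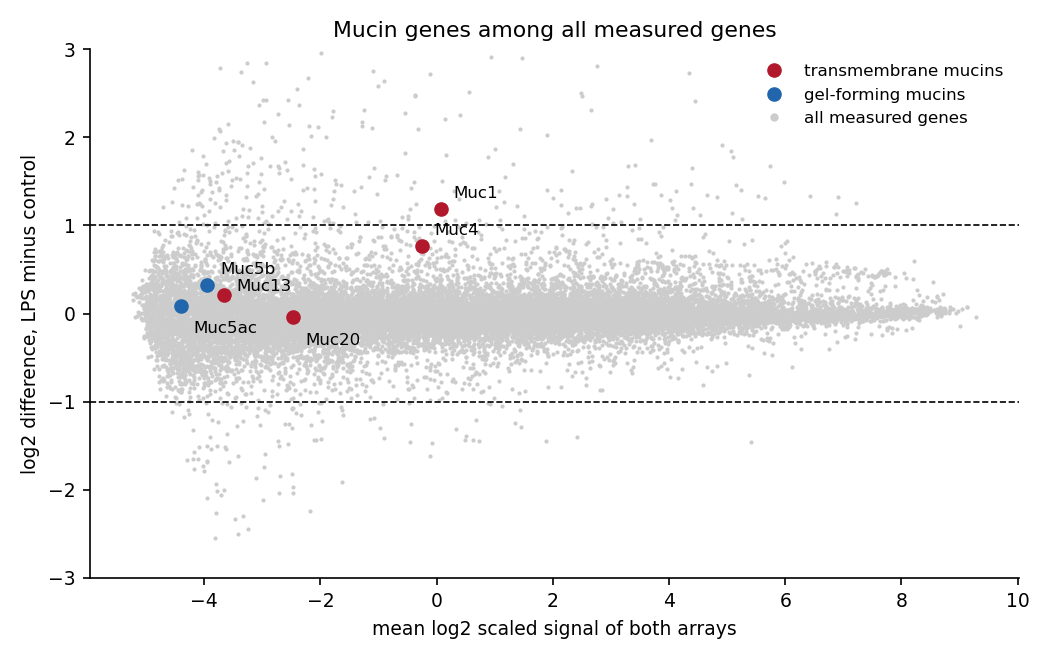
Log2 difference, LPS minus control, against the mean log2 scaled signal of both arrays for all measured genes (grey), transmembrane mucins (red) and gel-forming mucins (blue), with dashed lines at 2-fold and 31 genes beyond the axis limits of 3 log2 units. Muc1 and Muc4 lie at middling brightness near the upper edge of the cloud, while Muc13, Muc5ac and Muc5b lie at the dim end where the cloud is wide.

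The genome neighbourhoods of the members were then compared, by the mm9 positions of probes within 50 kb, a window set after values were known. Around Muc1, 14 probes of 11 other genes were all above background. Thbs3, which encodes the matrix protein thrombospondin 3, has its probes 4.30 kb and 4.28 kb to the low-coordinate side of the Muc1 probe. They read 9900 and 6776 on the LPS array, against 5219 and 3550 on the control array, with differences of 0.97 ± 0.03 and 0.98 ± 0.03. Trim46, which encodes a microtubule-bundling protein of the axon initial segment, has its probe 3.14 kb to the other side. It read 877.7 on the LPS array and 574.7 on the control array, a difference of 0.66 ± 0.06. The remaining 9 genes of that window lay between -0.09 and 0.28. Muc1 was thus flanked by the genes with the largest differences of its window, and whether transcripts of these neighbours overlap the Muc1 probe was not analysed here.

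**Figure D4:**
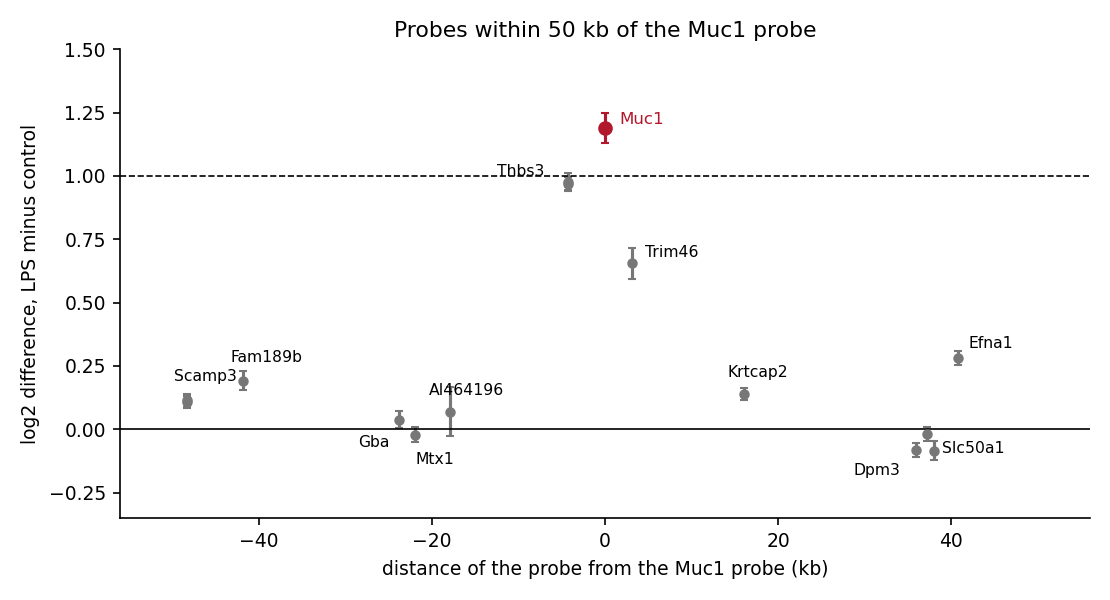
Log2 difference, LPS minus control, of every probe within 50 kb of the Muc1 probe, against its distance in kb, with bars for the spot SD and a dashed line at 2-fold. Muc1 (1.19), Thbs3 (0.97 and 0.98) and Trim46 (0.66) stand above the other 9 genes, which lie between -0.09 and 0.28.

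The probes of the 4 gel-forming mucins lie within 239.1 kb of chromosome 7. Beside this cluster, Ap2a2, which encodes a clathrin adaptor subunit, differed by 0.04, and the 3 probes of Tollip, which encodes a Toll-interacting adaptor, lay between -0.13 and 0.13. The Muc4 and Muc20 probes lie within 11.3 kb of chromosome 16, yet Muc4 was at 0.77 and Muc20 at -0.04. The measured probe of Rubcn, an autophagy regulator next to them, differed by 0.26.

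Promoters are shown for Muc1 and Muc4, the members with the largest differences, from the RefSeq table of GRCm38.p6. Each run is the 250 bases before the gene's start, 5′ to 3′, and capitals mark matches to a GC box (GGGCGG) or a TATA box (TATAAA). The Muc1 run is chr3:89228806-89229055 and the Muc4 run chr16:32735636-32735885, both on the plus strand. Muc1 held GC boxes starting 91 and 49 bases before its start and a TATA box starting at 31 bases, and Muc4 a TATA box starting at 36 bases.
Muc1 promoter: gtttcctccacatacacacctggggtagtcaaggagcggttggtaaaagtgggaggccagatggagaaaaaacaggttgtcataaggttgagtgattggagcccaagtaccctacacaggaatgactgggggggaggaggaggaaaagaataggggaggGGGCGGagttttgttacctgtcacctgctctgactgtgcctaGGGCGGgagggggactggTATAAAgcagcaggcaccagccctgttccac
Muc4 promoter: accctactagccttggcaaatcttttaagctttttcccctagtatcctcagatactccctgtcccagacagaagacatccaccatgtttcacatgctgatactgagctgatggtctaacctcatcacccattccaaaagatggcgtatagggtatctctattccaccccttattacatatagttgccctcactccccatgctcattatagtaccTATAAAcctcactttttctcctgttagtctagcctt

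The table held promoters for 8 of the 10 members, 9 promoters in all. Searched on both strands, a GC box was also found for Muc2 (52 bases before the start, minus strand), which held a TATA box 174 bases before its start. A STAT site (TTCNNNGAA) was found for Muc13 alone among the 8, at 140 bases. Muc13 alone had a pair of promoters, and the other of the pair held no match. None of the 3 motifs overlapped another in these runs. Over 32851 mouse promoters, 32.7% held the GC box, 12.4% the TATA box and 7.02% the STAT site. A match is only a match of letters.

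Genes that work with mucins were set beside them in 6 lists, chosen with earlier results of these data known. Among 13 other mucins and mucin-like proteins, 9 had a probe and 3 were measured, with 0 at least 2-fold either way. Mcam, an adhesion molecule also called Muc18, differed by 0.14, but by -0.25 when the median of its 2 probes was taken. Cd164, the sialomucin endolyn, differed by -0.23 and Ovgp1, an oviduct glycoprotein, by -0.24. Muc15, Muc19, Muc21 (Gm9573 on the array), Mucl1, Mucl2 and Emcn were well above background on neither array.

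Of 21 genes for goblet granule contents and mucus partners, 8 were measured, 2 were at least 2-fold higher with LPS and 0 lower, with a median of 0.0047. Spink4, a goblet cell protease-inhibitor-like protein, read 1815 on the LPS array and 391.8 on the control array, a difference of 2.26. Itln1, a lectin for microbial glycans, read 11113 on the LPS array and 3597 on the control array, a difference of 1.67. The lowest were Clca1, a mucus-processing metalloprotease, at -0.74 ± 0.20 and Bcas1 at -0.31. Clca1 read 24.2 on the LPS array and 41.6 on the control array, and with normexp background correction it differed by -0.25. Agr2, the disulfide isomerase that folds Muc2, was well above background on the control array only. It read 21.2 on the LPS array against 45.1 on the control array, 2.07-fold lower with LPS after scaling. That is a ratio of 2 faint signals and no lower bound. The other 12, among them Fcgbp, Tff1, Tff2, Tff3 and Zg16, were well above background on neither array.

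Of 13 transcription factors of goblet and other secretory lineages 11 were measured, 0 were at least 2-fold higher and 1 lower, with a median of -0.03. Spdef, which drives goblet cell maturation, read 57.6 on the LPS array and 231.8 on the control array, a difference of -1.96, or -1.29 with normexp background correction. Foxa3 followed at -0.36. Elf3 and Ehf, epithelial ETS factors like Spdef, were at 0.70 and 0.29. Atoh1, which commits cells to the secretory lineage, was well above background on neither array.

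Of 28 genes listed for mucin-type O-glycosylation and related glycan steps 21 were measured, 0 at least 2-fold either way, with a median of -0.05. The 2 highest were Gcnt1 at 0.50 and Galnt10, a GalNAc transferase, at 0.27. The 2 lowest were the sialyltransferase St6galnac2 and Gcnt3, both at -0.43, and Gcnt1 and Gcnt3 both add the core 2 branch. Of 17 partners and sheddases of transmembrane mucins 14 were measured, 0 at least 2-fold either way, with a median of 0.02. Lgals3, a galectin that binds mucin glycans, stood at 0.58 and Met at 0.30, while Egfr and the membrane-actin linker Ezr each stood at -0.19. In that list Mst1r passed background on the LPS array only (21.5 LPS, 15.5 control), at least 1.39-fold higher. Pdzk1 passed it on the control array only (11.3 LPS, 20.6 control), at least 1.18-fold lower.

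Of 17 receptors, ligands, kinases and factors reported to regulate mucin genes 16 were measured, 0 at least 2-fold higher and 1 lower, with a median of 0.06. Hif1a, the hypoxia-inducible factor subunit, stood at 0.65 and Nfkb1, the p50 precursor, at 0.55. When the median of each gene's 2 probes was taken, Hif1a was at 0.48 and Nfkb1 at 0.64. The EGF receptor ligand gene Areg read 818.8 on the LPS array and 1705 on the control array, a difference of -1.01. Areg, the gene counted as lower, fell short of 2-fold with normexp background correction (-0.97) and with cyclic loess scaling (-0.98). Creb1 was at -0.20, but at -0.01 when the median of its 2 probes was taken.

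**Figure D5:**
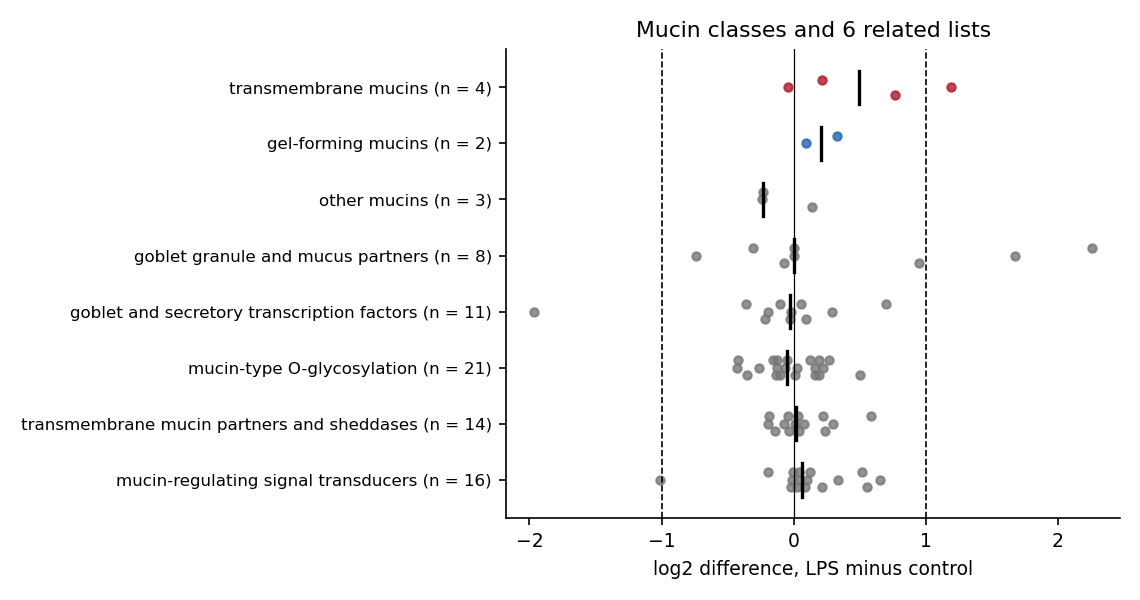
Log2 difference, LPS minus control, of each measured gene of the transmembrane mucins (red), gel-forming mucins (blue) and the 6 related lists (grey), with black ticks for medians and dashed lines at 2-fold. Medians of the lists lie between -0.23 and 0.06, with Spink4 and Itln1 to the far right and Spdef to the far left.

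Well-above-background spots made up 54.7% of the LPS array and 55.8% of the control array, out of 59305 non-control spots each, and 0 were saturated. All 8 general epithelial markers were measured and lay below 0 (median -0.19), with summed signals of 662668 on the LPS array and 767023 on the control array. Of 6 intestinal markers 5 were measured and lay below 0, with sums of 20207 on the LPS array and 50763 on the control array, most of it from the galectin gene Lgals4 (-1.45). Vil1, which encodes the brush border protein villin, stood at -0.72, and Cdx2 was well above background on neither array. Of 7 absorptive colonocyte markers 5 were measured, with sums of 5275 on the LPS array and 2639 on the control array. Most of these sums came from the carbonic anhydrase gene Car2 (5038 LPS, 2265 control), which stood at 1.20. The other 4 lay below 0, with Guca2a at -0.10 ± 0.20, Car1 at -0.16, Krt20 at -0.92 and Cdhr5 at -1.33. Cdhr5 was faint (21.8 LPS, 56.5 control), and its LPS reading was close to the lowest signals counted as above background. Aqp8 passed background in control cells alone, and Slc26a3 on neither array. Of 8 goblet markers only Clca1 and Spdef were measured on both arrays, with summed signals of 81.8 on the LPS array and 273.5 on the control array. Most of these sums came from Spdef (57.6 LPS, 231.8 control). Agr2 passed background on the control array only, and Muc2, Tff3, Fcgbp, Zg16 and Atoh1 on neither. Of 7 macrophage markers 2 were measured, with sums of 2860 on the LPS array and 2640 on the control array. These were Csf1r (1587 LPS, 1575 control) and Cd68 (1273 LPS, 1064 control). Lyz2, Tyrobp and Laptm5 were well above background on neither array. Adgre1 passed background on the LPS array only (30.3 LPS, 11.6 control), at least 1.96-fold higher, and Ptprc on the control array only (14.7 LPS, 52.9 control), at least 3.03-fold lower. Of 5 fibroblast markers 2 were measured, with sums of 239.8 on the LPS array and 166.6 on the control array. These were Col1a1 (129.4 LPS, 105.9 control) and Col1a2 (110.4 LPS, 60.7 control). Pdgfra passed background on the control array only (4.34 LPS, 34.3 control), at least 1.96-fold lower, and Col3a1 and Dcn on neither. Of 5 endothelial markers 2 were measured, with sums of 5431 on the LPS array and 5430 on the control array. Nearly all of these sums came from Kdr (5362 LPS, 5359 control), with Pecam1 faint (68.9 LPS, 70.9 control). Cdh5, Tek and Vwf passed background on neither array. CMT93 is an established line, so signals of macrophage, fibroblast or endothelial markers do not show that such cells were present. Whether any marker signal bears on the mucin differences was not tested.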

How the data were processed

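Labels gave 1 LPS and 1 control sample. Both carry 1 identical treatment text, read here as that of the LPS cells. Per the file headers, the deposited intensity of each spot was made with Agilent Feature Extraction 10.10.1.1, after background subtraction and detrending over the slide, with coordinates of mm9. Their number of arrays, 2, limits the precision.

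Control spots were dropped, as were 223 spots with an outlier flag, the log2 of processed intensity minus each array's 75th percentile was taken, and spots of a probe were averaged. For a gene above background on 1 array, the bound divides its signal there by the other array's lowest well-above-background signal. Where the gene's own signal on the other array was higher, as for Agr2, that signal was used, which gives a ratio and no bound. Names of genes other than members were updated by accession with RefSeq symbols (GRCm38.p6 table). Of 55681 probes 28026 matched and 1655 took another name. An old name now held by another gene was kept apart.

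No test was run. A fold of 2 was used as a size mark. Named genes were all members, every other mucin with a probe, and the 2 highest and 2 lowest of each list. Genes near the members and the probes named by description were added after values were seen. The members, lists and alternatives were chosen with earlier results of these data known. Alternatives covered background correction, scaling, filters and the choice of probe. Tools were R 4.3.3, limma 3.58.1, Python 3.11.15, numpy 2.4.6, pandas 2.3.3 and matplotlib 3.10.9.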

Additional observations from a re-analysis of the deposited data

How the results depend on the processing

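Over 11 alternatives Muc1 was always at least 2-fold higher with LPS (1.09 to 1.23, lowest with normexp background correction), and no other member reached 2-fold in any of them. Muc4 ranged from 0.56 to 0.81, Muc5b from 0.16 to 0.40 and Muc20 from -0.06 to 0.02. The transmembrane median of 0.49 was 0.98 over probes at or above the median brightness (Muc1 and Muc4 only), 0.21 with no background filter and 0.21 with probes named only in their description, an alternative chosen after seeing the data that brought the class difference of 0.28 to 0.0016. It was 0.10 with no background filter, 0.18 with the median over probes and 0.27 to 0.31 in the others that gave one. The other alternatives kept the gel-forming median between 0.11 and 0.28, and the brightness filter left no gel-forming mucin. Over all 20396 genes, 297 higher and 116 lower (71.9% higher) became 171 and 37 (82.2%) with normexp. They became 108 and 18 (85.7%) of 11709 genes with that brightness filter and 752 and 563 (57.2%) of 24707 with the looser flag. With no filter they were 1363 and 1179 (53.6%) of 34765 genes. The causes were not tested, and the filters also changed the number of genes kept. No scaling moved the median of all genes by over 0.1. Each scaling sets the arrays to a common level, so that small shift is no check on the results. No paired analysis was possible because each group had 1 array, and for the same reason no array could be left out.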
